A study of Mus musculus with 2 samples.

Results

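The genes described here are 9 mouse genes tied to the spinocerebellar ataxias, namely Atxn1, Atxn1l, Atxn2, Atxn2l, Atxn3, Atxn7, Atxn10, Tbp and Ppp2r2b. They were taken by name from the 43346 genes of the deposited gene tables, through the Ensembl identifiers of those tables. All 9 were found and together they held 49 annotated transcripts. The tissue was the whole hindbrain, the caudal part of the brain that forms the cerebellum, pons and medulla, from B6NCrl mouse embryos of both sexes at embryonic day 15.5. The series held 1 group and no other condition, with 2 biological replicates. Replicate 2 was a pool of 62 embryos and replicate 1 a pool of 78. Each library was made from 10 ng of total RNA.

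Spinocerebellar ataxias are inherited diseases in which the cerebellum and its connections degenerate. Several of them arise in people from a CAG repeat that grows within a coding sequence and is read as a long run of glutamine, as in the human ataxin-1, ataxin-2, ataxin-3, ataxin-7 and TATA-binding protein genes. In the human ataxin-10 and PPP2R2B genes the repeat that grows lies outside the coding sequence. Atxn1l and Atxn2l encode paralogues of ataxin-1 and ataxin-2.

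The libraries held 43263959 gene counts in replicate 2 and 40020322 in replicate 1, of which the 9 genes took 0.108% in replicate 2 and 0.102% in replicate 1. Of the 10 hindbrain markers, 9 reached 1 TPM in both libraries, En2 being the exception at 0.48 TPM in replicate 2 and 1.07 in replicate 1. All 8 neuron markers were detected, and their TPM summed to 4007 in replicate 2 and 3882 in replicate 1. Of 8 forebrain markers only Neurod6 reached 1 TPM in both. Their TPM summed to 48.9 in replicate 2 and 26.8 in replicate 1. TPM is a relative abundance, scaled to a fixed total and corrected for transcript length, and means below carry the SD of the 2 libraries. With 1 group and 1 library per pool, no p-value was computed, and the SD measures the spread between the 2 pools.

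All 9 genes were expressed in the embryonic hindbrain, and their levels spanned more than 2 orders of magnitude. Each reached 1 TPM in both libraries, as did 63.1% of the 21461 nuclear protein-coding genes. The median of the 9 genes was 44.6 ± 3.71 TPM (SD, n = 2), beside 5.72 TPM for all nuclear protein-coding genes and 19.4 TPM for the 13542 of them that were detected. Atxn10, Ppp2r2b, Atxn2, Atxn2l and Tbp lay above that last median, while Atxn3, Atxn1, Atxn1l and Atxn7 lay below it. In bulk tissue a gene read in fewer cells and a gene with less RNA per cell cannot be told apart.

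**Figure D1:**
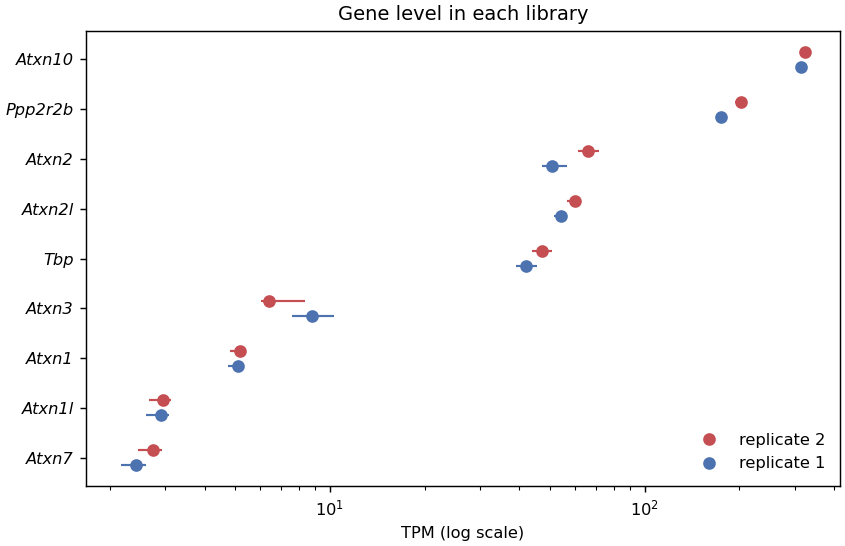
Gene level of the 9 genes in TPM (log axis) in replicate 2 (red) and replicate 1 (blue), ordered by mean, with horizontal lines for the authors' deposited interval of the TPM. Atxn10 lies highest, at 324 TPM in replicate 2 and 314 in replicate 1, and Atxn7 lowest, at 2.75 in replicate 2 and 2.43 in replicate 1. The points of Atxn10, and that of Ppp2r2b in replicate 2, lie just above their deposited intervals.

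Among the polyglutamine disease genes, Atxn2 and Tbp stood well above Atxn3, Atxn1 and Atxn7. Atxn2 encodes an RNA-binding protein that associates with poly(A)-binding protein, and it had 65.9 TPM in replicate 2 and 50.9 in replicate 1. Tbp, the TATA-binding protein of the general transcription machinery, had 47.2 TPM in replicate 2 and 42.0 in replicate 1. Atxn3, a deubiquitinase of the Josephin family, had 6.43 TPM in replicate 2 and 8.76 in replicate 1. The range of no one of these 3 genes reached that of another.

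The lowest of the disease genes were Atxn1 and Atxn7. Atxn1, whose protein binds the transcriptional repressor Capicua, had 5.20 TPM in replicate 2 and 5.12 in replicate 1. Atxn7, a subunit that ties the deubiquitinase module to the SAGA coactivator, had 2.75 TPM in replicate 2 and 2.43 in replicate 1, from 508 and 425 counts in those libraries. Atxn7 was the lowest of the 9 genes, at the 42.4th percentile of nuclear protein-coding genes by mean TPM.

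The mouse coding sequences of these 5 genes differ in the length of their longest glutamine run. Below is the longest uninterrupted run of glutamine codons, CAG or CAA, in the leading coding transcript of each, 5′ to 3′ on the coding strand, with the run in capitals and 24 bases of coding sequence on either side. The bases are those of the GENCODE M21 transcripts on GRCm38.

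Tbp: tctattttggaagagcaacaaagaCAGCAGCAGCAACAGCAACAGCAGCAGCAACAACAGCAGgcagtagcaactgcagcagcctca
Atxn3: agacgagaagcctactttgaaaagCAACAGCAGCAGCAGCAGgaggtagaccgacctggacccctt
Atxn7: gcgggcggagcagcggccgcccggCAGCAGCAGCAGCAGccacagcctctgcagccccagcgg
Atxn1: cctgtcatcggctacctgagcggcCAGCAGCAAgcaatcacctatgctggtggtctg
Atxn2: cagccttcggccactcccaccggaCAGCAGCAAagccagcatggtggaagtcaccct

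Tbp carried the longest, with 13 codons, of which 9 were CAG and 4 CAA, in exon 4 of 9 of Tbp-201 (chr17:15504391-15504429, + strand). In Atxn3 the run was 6 codons, 5 of them CAG, in exon 10 of 11 of Atxn3-201 (chr12:101926563-101926580, − strand). Atxn7 had 5 CAG codons in exon 2 of 12 of Atxn7-201 (chr14:14013156-14013170, + strand), at codons 25 to 29 of 867 counted with the stop. The longest runs of Atxn1 and Atxn2 were 3 codons each. That of Atxn1 lies in exon 7 of 8 of Atxn1-201 (chr13:45567080-45567088, − strand), at codons 444 to 446 of 791, and that of Atxn2 in exon 22 of 25 of Atxn2-201 (chr5:121810946-121810954, + strand), at codons 1129 to 1131 of 1286. Neither of these runs is shown here as the counterpart of the human repeat of its gene. The paralogues Atxn1l and Atxn2l reached 2 codons each, and Atxn10 had no pair of adjacent glutamine codons, its longest run being 1.

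Most of the RNA of Tbp and Atxn3 came from transcripts whose exons include the run. For Tbp these were 9 of 11 annotated transcripts, with 44.1 TPM in replicate 2 and 40.3 in replicate 1, or 94.7 ± 1.76% of the gene's TPM (SD, n = 2). For Atxn3 they summed to 5.43 TPM in replicate 2 and 5.35 in replicate 1. The Atxn3 transcripts without the run had 1.01 TPM in replicate 2 and 3.40 in replicate 1. By these estimates the run-bearing Atxn3 RNA was close in the 2 libraries, at 84.3% of the gene's TPM in replicate 2 and 61.1% in replicate 1. The gene's difference in TPM lay in the transcripts that lack the run. Among them is Atxn3-205, whose deposited intervals overlapped between the libraries. For Atxn2, transcripts with the run near the end of its coding sequence held 55.2 ± 2.03% of TPM and 86.5 ± 1.61% of counts. Every annotated transcript of Atxn1 and Atxn7 contains the run in GENCODE M21, where none of them has the length given in the deposited tables.

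Both paralogues without a disease repeat were expressed beside their partner gene. Atxn1l had 2.94 TPM in replicate 2 and 2.90 in replicate 1. The ratio of Atxn1 to Atxn1l was 1.77 in TPM in both libraries, and 2.48 in counts, since the annotated transcripts of Atxn1 are longer. Atxn2l had 60.1 TPM in replicate 2 and 54.4 in replicate 1, and its range lay within that of Atxn2. Their level per length therefore gave no order. Atxn2 had 3385 counts in replicate 2 and 2714 in replicate 1, and Atxn2l had 5543 in replicate 2 and 4784 in replicate 1, but the effective lengths also differed, at 1879 nt for Atxn2 and 3377 nt for Atxn2l in replicate 2, and 2060 nt for Atxn2 and 3398 nt for Atxn2l in replicate 1.

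The pairs remain close in sequence over short stretches of their coding regions. The 90-base windows, in reading frame, with the most identical bases in each pair follow, 5′ to 3′ on the coding strand, with bases identical between the partners in capitals.

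Atxn1: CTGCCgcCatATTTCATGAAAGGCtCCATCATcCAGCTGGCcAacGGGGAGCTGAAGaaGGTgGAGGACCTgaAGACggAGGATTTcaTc
Atxn1l: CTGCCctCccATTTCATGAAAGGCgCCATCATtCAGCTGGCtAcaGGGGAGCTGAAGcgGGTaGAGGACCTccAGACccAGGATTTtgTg
Atxn2: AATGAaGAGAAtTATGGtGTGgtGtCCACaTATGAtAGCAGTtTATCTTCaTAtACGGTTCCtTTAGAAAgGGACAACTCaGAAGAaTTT
Atxn2l: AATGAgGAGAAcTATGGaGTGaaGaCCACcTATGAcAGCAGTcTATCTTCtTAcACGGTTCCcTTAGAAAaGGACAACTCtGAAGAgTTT

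The windows of Atxn1 (exon 7 of Atxn1-201, chr13:45566693-45566782) and Atxn1l (exon 4 of Atxn1l-201, chr8:109732153-109732242), both on the − strand, shared 71 of 90 bases, or 78.9%. Those of Atxn2 and Atxn2l shared 75 of 90, or 83.3%, and cross from exon 7 into exon 8 in both genes. The Atxn2 window runs on the + strand within chr5:121777406-121777941 and the Atxn2l window on the − strand within chr7:126498272-126499205, each span including the intron between those exons. For reads that match both genes, the sources used here do not say how they were assigned.

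The leading positions among the 9 genes were held by those whose human repeat lies outside the coding sequence. Atxn10 (chr15:85336245-85463212, + strand) encodes a cytoplasmic protein with armadillo repeats needed for the survival of cultured cerebellar neurons. It had 324 TPM in replicate 2 and 314 in replicate 1, from 20612 and 18892 counts in those libraries. Its mean of 319 ± 7.37 TPM stood at the 98.3th percentile of nuclear protein-coding genes, and it took 46.5% of the summed TPM of the 9 genes. Ppp2r2b, a brain-enriched B55 regulatory subunit of the phosphatase PP2A, had 202 TPM in replicate 2 and 175 in replicate 1. Atxn10 was 1.70 ± 0.129 times as abundant as Ppp2r2b and 124 ± 7.95 times as abundant as Atxn7 (SD, n = 2).

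In the full order of levels, from Atxn10 through Ppp2r2b, Atxn2, Atxn2l, Tbp, Atxn3, Atxn1 and Atxn1l to Atxn7, neighbours were mostly separate. The library ranges overlapped only for Atxn2 and Atxn2l, whose deposited intervals overlapped in replicate 1 but not in replicate 2. For Atxn1l and Atxn7 the ranges did not overlap, but the authors' intervals did so in both libraries. For the remaining neighbours neither the ranges nor the intervals overlapped.

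The difference between the 2 pools was small for all 9 genes when reads were counted. None was 1.5-fold apart after scaling, where 6.45% of the 17048 genes averaging at least 20 counts were. Replicate 2 was higher for 6 genes, and for 4 of these, Atxn2, Ppp2r2b, Atxn2l and Tbp, the 95% exact (Clopper-Pearson) interval of the log2 ratio of replicate 2 over replicate 1 lay above 0. Of the same 17048 genes 50.5% were higher in replicate 2, 19.6% had an interval above 0 and 18.5% below 0, where none of the 9 lay. Such intervals cover counting error only, and reads without molecular identifiers are not independent molecules. The ratio was 0.21 for Atxn2 (interval 0.14 to 0.28) and 0.18 for Ppp2r2b (interval 0.14 to 0.22). It was 0.10 for Atxn2l and for Tbp, 0.15 for Atxn7, 0.02 for Atxn10, −0.01 for Atxn1 and Atxn1l, and −0.05 for Atxn3. The median of the 9 genes was 0.10 and that of all genes tested 0.0017, with the middle 50% of all genes between −0.12 and 0.11. When the libraries were instead scaled by their spike-in RNAs, the median of all genes moved to −0.11 and only 3 of the 9 genes, Atxn2, Ppp2r2b and Atxn7, were higher in replicate 2. Atxn2l and Tbp then stood at −0.01 and −0.02.

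Some sets of cell type markers also differed between the pools, while others did so little. The neuron markers had a median log2 ratio of 0.0037, with 0 of 8 past 1.5-fold. The granule lineage markers had a median of 0.14, with 1 of 6 past 1.5-fold, Barhl1 at −0.68, against the sign of the median. Of all 17048 genes averaging at least 20 counts, 6.45% were past 1.5-fold. The Purkinje lineage markers, 7 of 8 detected, summed to 563 TPM in replicate 2 and 477 in replicate 1, with a median log2 ratio of 0.48 and 2 of 8 past 1.5-fold. Most of those sums was Pcp4, at 368 TPM in replicate 2 and 343 in replicate 1, with a log2 ratio of 0.07. The 6 erythroid markers summed to 12387 TPM in replicate 2 and 15774 in replicate 1, and the 7 meninges and fibroblast markers to 968 TPM in replicate 2 and 1332 in replicate 1. Past 1.5-fold were 0 of 6 erythroid markers and 2 of 7 meninges and fibroblast markers. The choroid plexus markers, 5 of 6 detected, summed to 1268 TPM in replicate 2 and 940 in replicate 1, with a median log2 ratio of 0.36 and 2 of 6 past 1.5-fold. Those 2 went opposite ways, Folr1 at 0.73 and Otx2 at −0.83. Among the 10 hindbrain markers only En1 and En2 were past 1.5-fold, with log2 ratios of −1.10 and −1.18, while the median of the 10 was 0.09. Of the 8 forebrain markers 5 were past 1.5-fold between the libraries, with a median log2 ratio of 2.33. The part of these markers in the ratios of Atxn2, Ppp2r2b, Atxn2l and Tbp was not tested.

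**Figure D2:**
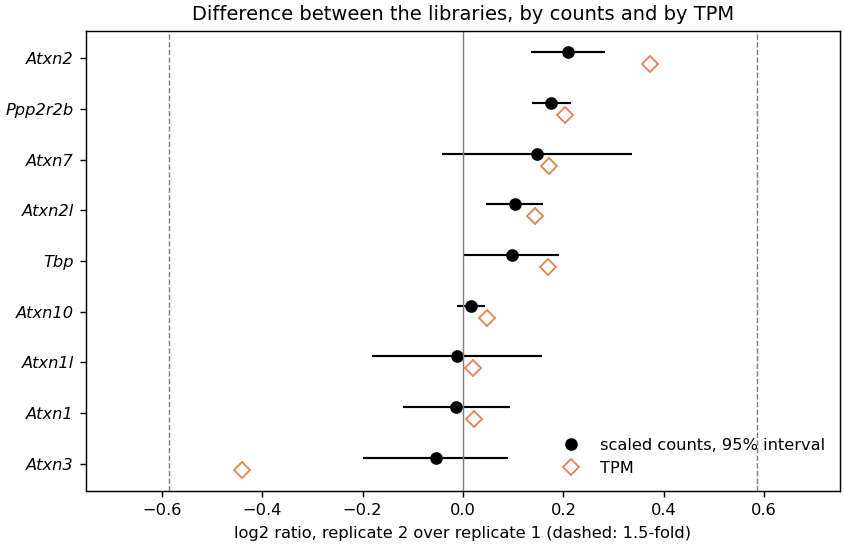
Log2 ratio of replicate 2 over replicate 1 for the 9 genes, from TMM-scaled counts (filled circles, with 95% counting intervals) and from TPM (open diamonds); dashed lines mark 1.5-fold. All values lie within the dashed lines, and Atxn3 shows the widest gap between the measures, at −0.05 by counts and −0.44 by TPM.

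Atxn3 was the gene whose reading depended most on the unit. Its counts were 802 in replicate 2 and 772 in replicate 1, yet its TPM was 6.43 in replicate 2 and 8.76 in replicate 1. The effective length by which its counts were divided was 4562 nt in replicate 2 and 3407 nt in replicate 1. The 5363-nt Atxn3-201, which codes for the full protein, had 5.43 TPM in replicate 2 and 5.08 in replicate 1. The 1000-nt Atxn3-205 was listed at 0 in replicate 2 and at 2.89 TPM, from 67.5 counts, in replicate 1. Its deposited intervals overlapped, reaching up to 1.05 TPM in replicate 2 and down to 0.24 TPM in replicate 1.

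Across the 9 genes, 31 of the 49 annotated transcripts reached 1 TPM in both libraries and 8 were listed at 0 in both. Of the 78091 transcripts of all nuclear protein-coding genes 39% reached 1 TPM in both, and of the 62659 transcripts of detected nuclear protein-coding genes 48.6%. Of 19 transcripts with a complete coding sequence 16 were detected, of 13 with an incomplete one 8, of 7 retaining an intron 4, of 6 processed transcripts 3, and of 3 targets of nonsense-mediated decay 0. Over all detected nuclear protein-coding genes the shares detected were 68.5% of complete coding, 28.2% of incomplete coding, 41.8% of intron-retaining, 27.4% of processed and 31.9% of decay-target transcripts. The remaining transcript, of Atxn2, was not matched to a class and was listed at 0. Between the libraries, 7 of the 34 transcripts compared were 1.5-fold or more apart, a share close to the 20.5% of all 39656 transcripts compared. These 7 were Atxn2-202, Atxn2-210, Atxn3-205, Tbp-204, Tbp-207, Tbp-210 and Ppp2r2b-203.

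**Figure D3:**
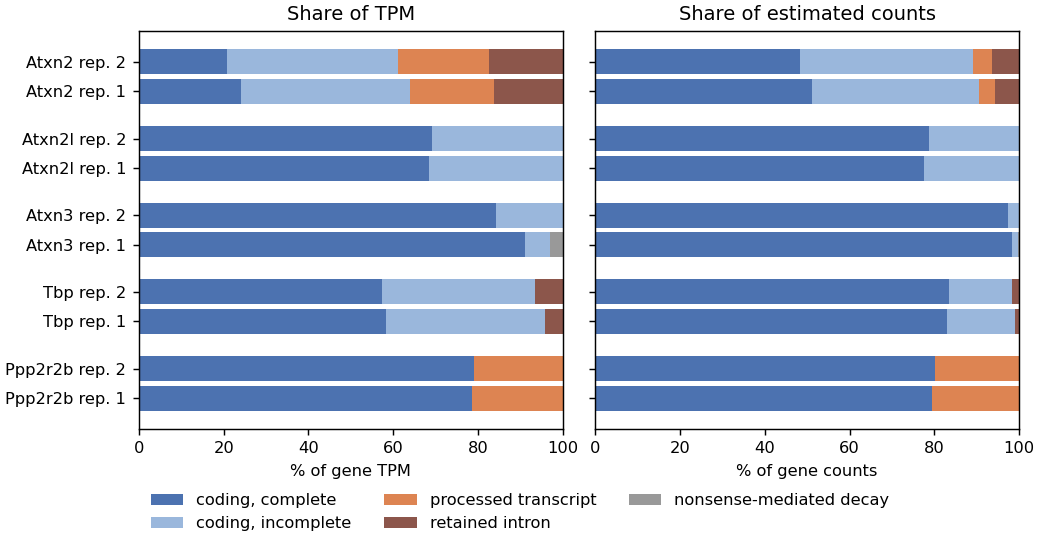
Share of each gene's TPM (left) and of its estimated counts (right), in percent, by annotated class of transcript in replicate 2 and replicate 1, for the 5 genes with more than 1 class. In Atxn2 transcripts with a complete coding sequence held 22.4% of TPM and 49.7% of counts on average, the lowest shares of the 5 genes.

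Atxn2 was the most divided of the 9 genes, with 9 of its 17 transcripts detected. Its single transcript with a complete coding sequence, Atxn2-201 (4471 nt), had 13.7 TPM in replicate 2 and 12.3 in replicate 1, or 22.4 ± 2.33% of the gene's TPM (SD, n = 2). The 497-nt processed transcript Atxn2-207 had 13.7 TPM in replicate 2 and 9.15 in replicate 1, from 149 and 94.3 counts in those libraries. The coding but incomplete Atxn2-209 followed with 11.6 TPM in replicate 2 and 9.98 in replicate 1, and Atxn2-208 with 7.33 TPM in replicate 2 and 5.08 in replicate 1. The 6 transcripts that retain an intron summed to 11.4 TPM in replicate 2 and 8.26 in replicate 1.

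Restricting both genes to transcripts with a complete coding sequence set Atxn2 below Atxn2l. Atxn2 then had 13.0 ± 1.02 TPM and Atxn2l 39.4 ± 3.03 TPM (SD, n = 2), a ratio of 0.33 in replicate 2 and 0.33 in replicate 1. On this measure Tbp, with 25.8 ± 1.80 TPM, also stood above Atxn2 in both libraries. The restriction was chosen after the data had been seen. In Atxn2l all 4 annotated transcripts were detected, led by Atxn2l-203 with 22.2 TPM in replicate 2 and 20.5 in replicate 1, then Atxn2l-201 with 19.4 TPM in replicate 2 and 16.7 in replicate 1. The incomplete Atxn2l-202 had 15.7 TPM in replicate 2 and 15.3 in replicate 1, and Atxn2l-204 2.85 TPM in replicate 2 and 1.86 in replicate 1.

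In Tbp 7 of 11 transcripts were detected, led by Tbp-201 (1891 nt) with 20.1 TPM in replicate 2 and 17.4 in replicate 1. The incomplete 763-nt Tbp-205 had 9.03 TPM in replicate 2 and 8.51 in replicate 1. The 12794-nt Tbp-211 had only 1.15 TPM in replicate 2 and 1.08 in replicate 1, but it took 400 of the gene's 1971 counts in replicate 2 and 355 of 1708 in replicate 1. Tbp exons share 2582 bases with Pdcd2 on the opposite strand, which had 47.3 TPM in replicate 2 and 46.6 in replicate 1. The sources used here do not say whether counting used strand, so reads in the shared bases cannot be told apart and the values of Tbp and of Tbp-211 are uncertain to that extent. Shared exonic bases were fewer for Atxn1 with Gmpr (375), Ppp2r2b with 4933407I08Rik (169) and Atxn2 with Sh2b3 (99), all on opposite strands.

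The leading transcript, that of highest TPM, differed between the libraries for 2 of the 6 genes with several transcripts, Atxn1 and Atxn2. Of 8177 coding genes with several transcripts and 5 TPM or more, 6.32% had a leader that differed. In Atxn1 the leader was Atxn1-202 in replicate 2, at 54.4% of the gene's TPM, and Atxn1-201 in replicate 1, at 61.5%. These transcripts are 10456 and 10581 nt long in the deposited tables, both have the full coding sequence, and their deposited intervals overlapped in both libraries. In Atxn2 the leader was Atxn2-207 in replicate 2 at 20.8%, where Atxn2-201 held 20.8% as well, and Atxn2-201 in replicate 1 at 24.1%. By estimated counts Atxn2-201 led in both libraries.

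**Figure D4:**
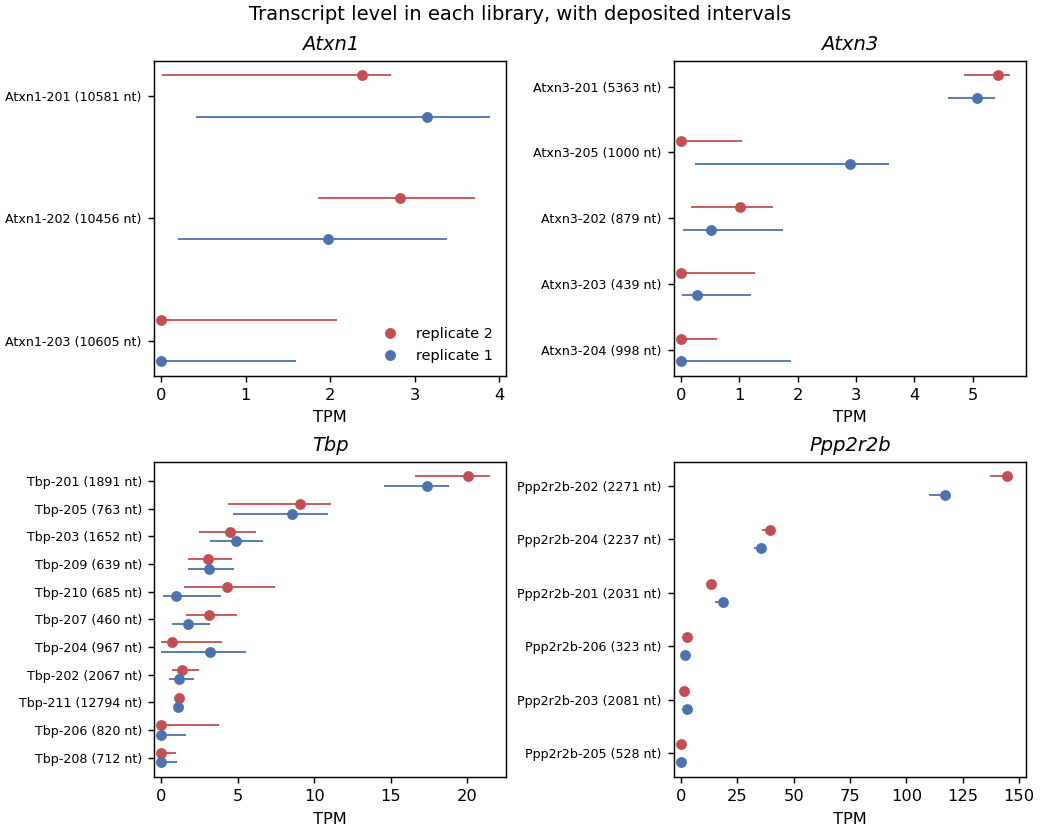
Level in TPM of every annotated transcript of Atxn1, Atxn3, Tbp and Ppp2r2b in replicate 2 (red) and replicate 1 (blue), with the authors' deposited intervals as lines and transcript lengths in nt. The intervals of Atxn1-201 and Atxn1-202 overlap, Atxn3-205 is at 0 in replicate 2 and at 2.89 TPM in replicate 1, and Ppp2r2b-202 stands apart from the other transcripts of its gene.

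In Ppp2r2b 1 transcript dominated. Ppp2r2b-202 (2271 nt) had 145 TPM in replicate 2 and 117 in replicate 1, or 69.2 ± 3.49% of the gene's TPM (SD, n = 2). Next came the processed transcript Ppp2r2b-204, without an annotated coding sequence, at 39.5 TPM in replicate 2 and 35.5 in replicate 1. The coding Ppp2r2b-201, which begins farther upstream, had 13.4 TPM in replicate 2 and 18.4 in replicate 1, the reverse of the order seen in Ppp2r2b-202. The 4 transcripts that begin in the downstream group of start sites held 93.3% of TPM in replicate 2 and 89.4% in replicate 1, and Ppp2r2b-201 held 6.64% in replicate 2 and 10.5% in replicate 1. The shares of Ppp2r2b-201 in the 2 libraries thus differed while both kept the downstream group far ahead.

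Atxn1l, Atxn7 and Atxn10 had 1 annotated transcript each in the deposited tables. For 40 of the 49 transcripts the length in the tables equals that in the later GENCODE M21. The exceptions include Atxn10-201, at 2425 nt in the tables and 1937 nt in M21, and all 3 transcripts of Atxn1. Atxn7-201, at 6847 nt in the tables and 6853 nt in M21, and Atxn2-201, at 4471 nt and 4472 nt, also differ.

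The genes took very different shares of their own families. Ppp2r2b held 50.6 ± 1.38% (SD, n = 2) of the TPM of the 4 B55 subunits, with Ppp2r2d at 73.2 ± 2.18 TPM, Ppp2r2a at 55.9 ± 0.148 TPM and Ppp2r2c at 54.5 ± 5.74 TPM. Atxn7 held 0.746 ± 0.0238% of the ataxin-7 family, in which Atxn7l3b, encoding a short cytoplasmic relative of the SAGA subunit ATXN7L3, had 285 ± 13.5 TPM. Atxn7l3b alone held 82.2 ± 0.687% of that family's TPM, so the share of Atxn7 depends on counting it. The other family members were Atxn7l3 at 24.8 ± 0.806 TPM, Atxn7l2 at 17.5 ± 1.83 TPM and Atxn7l1 at 16.9 ± 2.95 TPM, each above Atxn7 in both libraries. Tbp lay below its paralogue Tbpl1, at 65.6 ± 3.06 TPM, in both libraries, and the oocyte-enriched Tbpl2 was listed at 0 in both. Atxn3 lay below the other Josephin deubiquitinases in both libraries, with Josd2 at 46.8 ± 0.58 TPM and Josd1 at 19.5 ± 0.629 TPM.

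**Figure D5:**
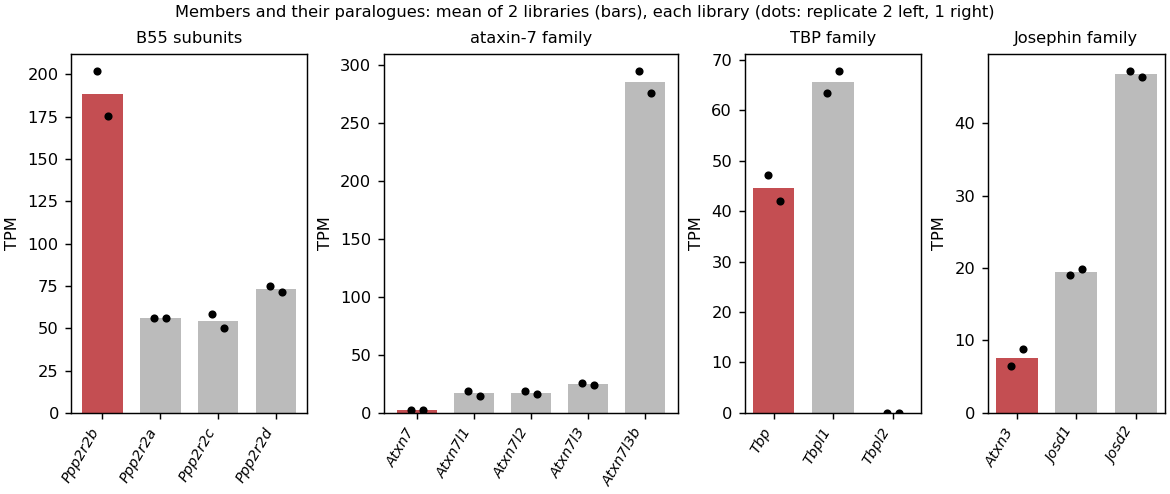
Mean TPM of the 2 libraries (bars) and each library (dots, replicate 2 left and replicate 1 right) for Ppp2r2b, Atxn7, Tbp and Atxn3 (red) and their paralogues (grey), 1 panel per family with its own axis from 0. Ppp2r2b is the highest B55 subunit, while Atxn7 is the lowest of its family and Atxn3 of its own, and Tbp lies below Tbpl1.

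The genes of the listed partners of these proteins were nearly all detected as RNA. The same cut, 1 TPM in both libraries, was passed by 63.1% of all nuclear protein-coding genes. Of the ataxin-1 partners 4 of 5 were detected, with Rbm17 at 100 ± 3.05 TPM, Kat5 at 37.3 ± 1.92 TPM and Cic, which encodes Capicua, at 28.3 ± 3.20 TPM. Gfi1 was listed at 0 in replicate 2 and had a single count in replicate 1. All 5 ataxin-2 partners were detected, led by Tardbp at 143 ± 13.0 TPM, Pabpc1 at 143 ± 19.0 TPM and Lsm12 at 87.2 ± 10.0 TPM. Atxn2 itself had a log2 ratio of replicate 2 over replicate 1 of 0.21, and the median of its partners was −0.15, with no partner past 1.5-fold.

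Ataxin-3 acts with the ubiquitin-selective segregase p97, encoded by Vcp, at 381 ± 3.19 TPM, and with the ubiquitin ligase CHIP, encoded by Stub1, at 222 ± 12.1 TPM. The third of its list was Ufd1, a p97 cofactor, at 82.3 ± 0.757 TPM, and all 8 genes of the list were detected. The list of ataxin-7 paralogues and SAGA genes, which besides the deubiquitinase module holds the acetyltransferase and core genes Kat2a, Sgf29, Supt3 and Supt7l, was detected in full, 12 of 12. The deubiquitinase module had its catalytic subunit Usp22 at 312 ± 26.6 TPM and Eny2 at 60.2 ± 0.82 TPM. Usp22 was thus above Atxn7 by a wide margin in both libraries. The 3 ataxin-10 partners were Gnb2 at 427 ± 16.0 TPM, Ogt at 145 ± 0.933 TPM and the mitotic kinase gene Plk1 at 20.4 ± 3.87 TPM.

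Of the TBP paralogues and general transcription factors 21 of 22 were detected, Tbpl2 being the exception. The highest were Drap1 at 248 ± 6.89 TPM, Gtf2a2 at 154 ± 0.00707 TPM and Taf10 at 84.5 ± 6.48 TPM. All 12 PP2A genes listed beside Ppp2r2b were detected, led by the scaffold gene Ppp2r1a at 536 ± 34.8 TPM, the B56 subunit gene Ppp2r5b at 118 ± 16.4 TPM and the catalytic gene Ppp2ca at 103 ± 3.03 TPM. Apart from Ppp2r1a, no gene of that list reached the level of Ppp2r2b.

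Of 31 further genes tied to human ataxias, 29 were detected, beside 63.1% of all nuclear protein-coding genes. The median of the 9 genes, which include the paralogues Atxn1l and Atxn2l, was 44.6 TPM and that of the 31 was 17.7 ± 0.361 TPM. With only transcripts of complete coding sequence the median of the 9 was 13.0 TPM, a restriction not applied to the 31. The highest of the 31 were the elongation factor gene Eef2 at 421 ± 2.06 TPM, Stub1 and the snoRNP gene Nop56 at 185 ± 9.96 TPM. Fat2, with 0.32 TPM in replicate 2 and 0.20 in replicate 1, and Tgm6, with 0.03 TPM in replicate 2 and 0.47 in replicate 1, were not detected. Of the 30 compared, 2 were past 1.5-fold between the libraries, a share close to the 6.45% of all 17048 genes averaging at least 20 counts. The 2 genes were Fat2 at a log2 ratio of 0.64 and Zfhx3 at −0.64.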

How the data were processed

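Total RNA of 2 hindbrain pools was measured in 1 library each. Per the accompanying notes, the authors quantified each library alone, without pooling, on mm10 with GENCODE M4 from transcriptome alignments. No aligner, quantifier or strand setting was named (not given in the sources used here). Per the file headers, the deposited estimated counts are raw. The deposited TPM is scaled over all features, spike-ins included. The deposited FPKM, scaled by length and assigned reads, served only for detection. The authors' interval bounds and posterior values are a deposited signal used to mark uncertainty. The authors' deposited percent of a gene's TPM per transcript was only compared with the shares computed here.

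Names, transcript classes, coordinates and coding sequences came from GENCODE M21 on GRCm38, the assembly of mm10, by identifier without version. Of 43346 gene identifiers 42462 matched and 884 did not. Spike-ins, which held 3.09% of counts in replicate 2 and 2.86% in replicate 1, and numeric identifiers stayed out of gene totals and scaling.

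A gene at 1 TPM or more in each library was called detected. Counts were scaled by TMM in edgeR 4.0.16 under R 4.3.3, and log2 ratios used a prior count of 0.5 and a mean count of 20 or more. The ratio was tested on simulated counts that held counting error only. They had no spread between pools, so that test cannot measure such spread. A floor of 3 counts stands for a count of 0, but it entered no ratio, where a 0 took the prior count of 0.5. Alternatives were other TPM minimums, FPKM, posterior TPM, TPM over nuclear coding genes, DESeq2 1.42.0 size factors, library and spike-in totals, TPM ratios and each library alone.

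All 9 genes were named, with their transcripts at 1 TPM or more described or counted. Of each companion list the 3 highest genes, those not detected and every paralogue were named. Zfhx3 and the markers Barhl1, Folr1, Otx2 and Pcp4 were named after their values were seen. The 9 genes and all lists were chosen with earlier results of these data known. Coding runs of glutamine codons stand in place of the protein stretches that had been planned. No gene was sought for likeness of pattern, since 2 libraries of 1 group give none. Some single marker values are not reported here.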

Additional observations from a re-analysis of the deposited data

How the results depend on the processing

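All 9 genes stayed detected under every alternative run. Their median level was 44.6 TPM, between 42.0 and 47.2 TPM with 1 library left out, 56.8 TPM when TPM was rescaled over nuclear protein-coding genes, and 13.0 TPM with only transcripts of complete coding sequence, an alternative chosen after the data had been seen. In that last setting Atxn2 (13.0 TPM), Atxn2l (39.4 TPM), Tbp (25.8 TPM) and Ppp2r2b (149 TPM) moved by more than their SD. None of the 9 passed 1.5-fold under any scaling, filter or TPM ratio run. The number higher in replicate 2 was 6 with TMM, DESeq2 size factors or library totals, 3 with spike-in totals and 8 by TPM ratio. The genes that turned were Atxn2l, Tbp and Atxn10 under spike-in totals, to −0.01, −0.02 and −0.10 on the log2 scale, and Atxn1 and Atxn1l by TPM ratio, to 0.02 each at a pseudocount of 0.1. Detected transcripts numbered 22 at a minimum of 2 TPM and 36 at 0.5 TPM. Genes with the same leader in both libraries numbered 7, and 8 by posterior TPM, by counts or among coding transcripts, where only Atxn1 differed. No paired analysis was possible because the series holds 1 group. At 508 and 425 counts, the depth limits Atxn7 most. Transcript levels rest on the authors' estimates, and short transcripts on few reads.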
